A study of Mus musculus with 5 samples.

Results

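The carnitine shuttle and the enzymes that set malonyl-CoA, its brake, were followed in RNA-seq of mouse tibialis anterior (TA), a fast-twitch leg muscle. The genes were chosen by name from the table of expression values. They are Slc22a5, Cpt1a, Cpt1b, Cpt2, Crat, Acaca, Acacb and Mlycd, so 8 of the 17015 genes listed, and each was found in 1 row. TA came from male mice 8 weeks of age, with 3 libraries of WT control mice and 2 whose label is skmNrip1-/-. The study's legend gives 3 mice per group, so the data used here hold fewer libraries with that label. The mice labelled skmNrip1-/- carry a floxed Nrip1 allele, made on C57BL/6J, and a Cre driven by the myogenin promoter, brought in from C57BL/6JN mice, which directs the deletion to skeletal muscle. Controls were littermates without Cre, and all mice were sedentary. Which animal each library came from is not in the labels, so p-values measure the spread between these libraries. Nrip1 encodes RIP140, a corepressor of nuclear receptors such as PPAR and ERR, and the comparison asks how the muscle transcriptome differs without it.

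Long-chain fatty acids cannot cross the inner mitochondrial membrane as CoA esters. Carnitine, taken up through OCTN2 (Slc22a5), accepts the acyl group from CoA at the outer membrane through CPT1, in a liver form (Cpt1a) and a muscle form (Cpt1b). The acylcarnitine is exchanged for free carnitine by the translocase Slc25a20, and CPT2 (Cpt2) inside the mitochondrion returns the acyl group to CoA. CRAT (Crat) moves short acyl groups, mainly acetyl, between CoA and carnitine. Malonyl-CoA blocks CPT1. It is made by the acetyl-CoA carboxylases ACC1 (Acaca, cytosolic, feeding lipid synthesis) and ACC2 (Acacb, at the outer mitochondrial membrane, the main form in muscle), which AMPK switches off by phosphorylation, and it is removed by malonyl-CoA decarboxylase (Mlycd).

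The paired forms are measured separately only where their transcripts differ in sequence. In the GENCODE M21 transcripts (GRCm38), Cpt1a and Cpt1b share 0 stretches of 31 nucleotides, and so do Acaca and Acacb. The longest run common to both members of each pair is shown in capitals with 30 nucleotides on either side, all within coding sequence, because these are the places where fragments of 1 gene come closest to matching the other.
Cpt1a: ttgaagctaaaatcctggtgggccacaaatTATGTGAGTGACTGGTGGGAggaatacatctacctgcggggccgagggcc
Cpt1b: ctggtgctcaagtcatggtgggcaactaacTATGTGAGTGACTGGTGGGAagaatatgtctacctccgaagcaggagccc
Acaca: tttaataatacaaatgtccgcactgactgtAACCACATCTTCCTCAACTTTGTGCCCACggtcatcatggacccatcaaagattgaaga
Acacb: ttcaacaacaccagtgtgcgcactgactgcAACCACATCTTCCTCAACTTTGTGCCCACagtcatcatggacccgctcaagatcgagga
The run shared by Cpt1a and Cpt1b is 20 nucleotides long and crosses an exon junction in both genes, within chr19:3362220-3364494 (plus strand) and chr15:89423553-89423658 (minus strand). The run shared by Acaca and Acacb is 29 nucleotides long and lies in 1 coding exon of each gene, at chr11:84312832-84312860 and chr5:114228636-114228664, both on the plus strand. Cpt1b has another neighbor, Chkb, a choline kinase gene upstream on the same strand. A read-through gene, Gm44502, joins both and holds 2685 of the 3368 distinct stretches of 31 nucleotides in Cpt1b. Because of these shared stretches, reads from Gm44502 and from Cpt1b cannot be fully separated. The listed level of Gm44502 was 0.330 to 0.822 FPKM in the 5 libraries, against 117 FPKM or more for Cpt1b. Chkb itself was at 16.3 to 20.2 FPKM in WT control TA and at up to 21.0 FPKM in the libraries labelled skmNrip1-/- (log2 fold change 0.18, adjusted p = 0.640 from limma). On the opposite strand, Crat shares 411 exonic nucleotides with Gm16323, which has no row in the table used here, and 59 with Dolpp1, and the library kit is not described as keeping strand.

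Values are FPKM (fragment counts per transcript length and library size), as the authors deposited them. The steps between the lowest FPKM values of long genes with 1 transcript gave these scaling factors relative to WT control replicate 1. The smallest was 0.817, in skmNrip1-/- replicate 1, and it does not give the sequencing depth. In the 5 libraries, 86.2% to 93.9% of these low values lay within 0.15 of a whole number of steps. By the same steps, Cpt1a rested on about 431 to 743 fragments per library, Slc22a5 on 673 to 1036, Acaca on 1253 to 1981 and each of the other 5 genes on 2870 or more, if all fragments came from the longest coding transcript. The targeted gene went against its label. Nrip1 had 4.64 to 7.69 FPKM in WT control TA and 22.5 to 25.3 in the libraries labelled skmNrip1-/- (log2 fold change 1.94, adjusted p = 0.0261 from limma, called higher), and the table does not separate the deleted exon from the rest of the gene. Libraries are therefore named by their labels. The paper describes this line as RIP140-deficient, with Nrip1 RNA and RIP140 protein measured in gastrocnemius and heart. A further measurement of Nrip1 RNA in this line is given in a legend that does not name the tissue. Per its methods, the floxed exon holds the start and stop codons. The markers of skeletal muscle were high throughout (Ckm at 10393 FPKM or more). Libraries within WT control TA stood apart from one another in fiber genes. WT control replicate 1 had the largest summed level of the 4 type 2B fiber markers, 22658 FPKM against 15918 and 17322 in the other WT controls. Both libraries labelled skmNrip1-/- were below these, at 14700 and 15055 FPKM. Of the 4 genes 0 were called by limma, and 2 had an unadjusted p of 0.05 or less (0.453% and 11.9% of all genes tested). The summed level of 7 slow fiber markers overlapped between the groups, with 2 at that unadjusted p (Myl2 higher and Myl3 lower). WT control replicate 3 had 1102 FPKM of Myh2, the type 2A myosin, against 223 to 406 in the others. Summed blood markers were higher in the libraries labelled skmNrip1-/- (827 and 996 FPKM) than in WT control TA (511 to 764 FPKM). By limma 0 of the 5 genes were called, where 0.453% of all genes tested were. At an unadjusted p of 0.05 or less there were 3 of the 5, where 11.9% of all genes tested were in either direction. The part of blood in the values was not tested.

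In WT control TA the order of the levels was Crat, Cpt1b, Acacb, Mlycd, Cpt2, Slc22a5, Acaca and Cpt1a, from a mean of 188 FPKM to a mean of 2.98 FPKM. The same order held inside each of the 5 libraries. FPKM are per length, so these levels can be set side by side. Cpt1b stood clear of Acacb, Cpt2 of Slc22a5 (by 5.18 to 7.47 times) and Slc22a5 of Acaca, with no overlap over the libraries. The neighbors Crat and Cpt1b, Acacb and Mlycd, Mlycd and Cpt2, and Acaca and Cpt1a overlapped when taken over all libraries, although the first of each pair was higher within each library. Mlycd and Cpt2 came closest in skmNrip1-/- replicate 1, at 54.4 and 49.4 FPKM.

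**Figure D1:**
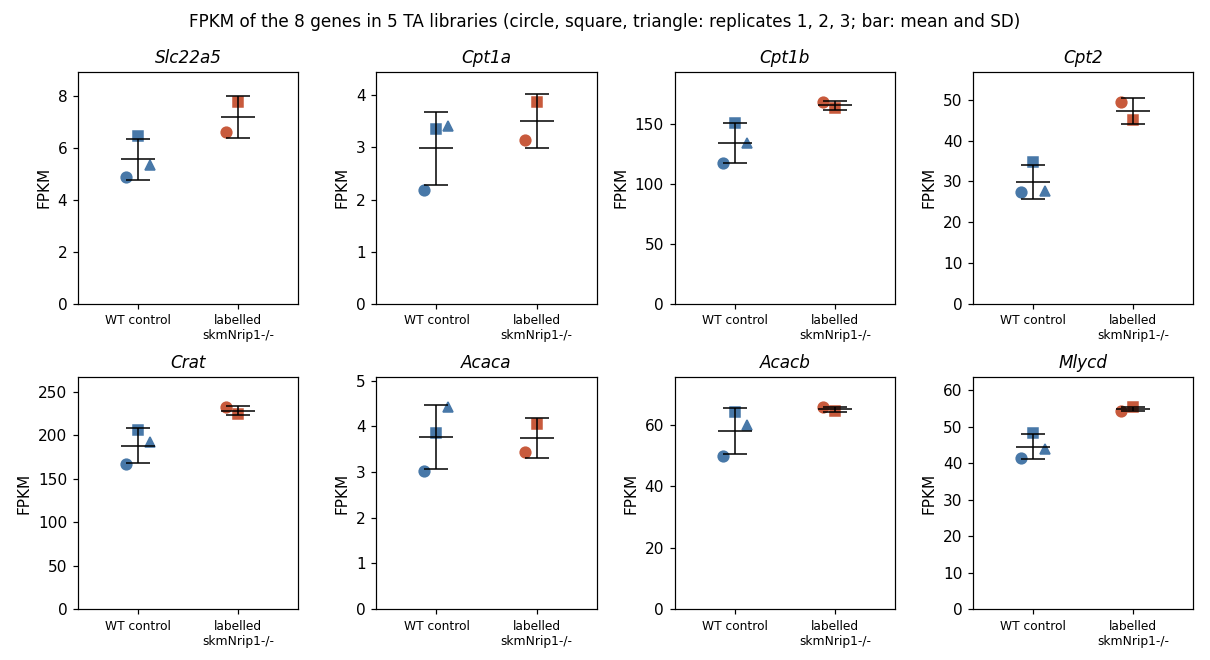
FPKM (vertical axes, from 0) of the 8 genes in the 3 WT control libraries (blue) and the 2 libraries labelled skmNrip1-/- (orange). Points are libraries and bars are the mean and SD. For Cpt2 both orange points (49.4 and 45.0 FPKM) lie well above the blue points (27.5 to 34.7), for Cpt1a and Acaca the colors overlap, and for Acacb they barely part.

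Slc22a5 (ENSMUSG00000018900, chromosome 11, 53864542 to 53891660, minus strand, GRCm38), the plasma membrane importer of carnitine, stood at 4.89, 6.45 and 5.33 FPKM in the WT control libraries (in replicate order), and at 6.62 and 7.76 FPKM in those labelled skmNrip1-/-. Both libraries labelled skmNrip1-/- were above every WT control library, the first by little. The log2 fold change was 0.37 (95% interval -0.0036 to 0.74, adjusted p = 0.424 from limma), which did not pass the test.

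The CPT1 forms differed far more from each other than between the groups. Cpt1b (ENSMUSG00000078937, chromosome 15, 89416405 to 89425863, minus strand) stood at 117, 151 and 135 FPKM in the WT control libraries (in replicate order), and at 169 and 163 FPKM in those labelled skmNrip1-/-. The groups did not overlap, and the log2 fold change of 0.31 (95% interval -0.0017 to 0.63) did not pass the test (adjusted p = 0.423 from limma). Cpt1a (ENSMUSG00000024900, chromosome 19, 3322334 to 3385733, plus strand) had 2.18, 3.36 and 3.41 FPKM in WT control TA, and 3.13 and 3.87 FPKM in the libraries labelled skmNrip1-/-. These groups overlapped. The log2 fold change was 0.24, its interval wide (-0.30 to 0.79), adjusted p = 0.749 from limma. Cpt1c, the brain form, was lower still, at 0.491 to 0.650 FPKM. Cpt1b thus made up 97.1% to 97.6% of the summed CPT1 FPKM across WT control TA, and 97.9% and 97.4% in the libraries labelled skmNrip1-/-. In bulk muscle, fewer cells of a type and less RNA per cell cannot be told apart, and Cpt1a is a form that non-muscle cells also use. The summed levels of the endothelial, macrophage and fibroblast markers (7, 6 and 5 genes, none listed at 0) overlapped between the groups, and their part in the Cpt1a values was not tested.

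Cpt2, the matrix enzyme, differed the most among the 8 genes. Cpt2 (ENSMUSG00000028607, chromosome 4, 107903981 to 107923610, minus strand) stood at 27.5, 34.7 and 27.6 FPKM in the WT control libraries (in replicate order), and at 49.4 and 45.0 FPKM in those labelled skmNrip1-/-. The lowest library labelled skmNrip1-/- was above the highest WT control library, and the distance between them exceeded the SD of each group. The means were 29.9 ± 4.16 (SD, n = 3) and 47.2 ± 3.16 (SD, n = 2), a ratio of 1.58. The log2 fold change of 0.66 (95% interval 0.33 to 0.99, standard error 0.14) had a p of 0.00231 before adjustment, and it was not called over all 12148 genes tested (adjusted p = 0.149 from limma). Slc25a20, the translocase that hands acylcarnitine to CPT2 and is not among the 8, had 50.2, 64.0 and 50.9 FPKM in WT control TA, and 105 and 97.2 FPKM in those labelled skmNrip1-/-. A log2 fold change of 0.88 (95% interval 0.55 to 1.21) was also short of the threshold (adjusted p = 0.0793 from limma).

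Crat (ENSMUSG00000026853, chromosome 2, 30400471 to 30415813, minus strand) had the highest level of the 8, with 167, 206 and 192 FPKM in the WT control libraries (in replicate order), and with 232 and 225 FPKM in those labelled skmNrip1-/-. The groups did not overlap. The log2 fold change was 0.28 (95% interval -0.011 to 0.58, adjusted p = 0.443 from limma), not past the test.

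**Figure D2:**
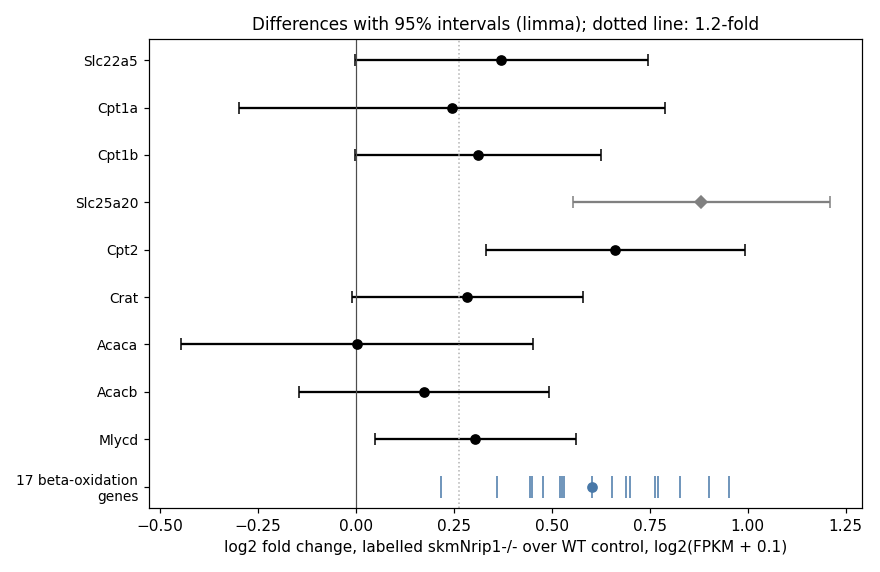
Log2 fold change (horizontal axis) of the 8 genes and, in gray, the translocase Slc25a20, with 95% intervals from limma. The lowest line gives the 17 beta-oxidation genes as ticks with their median of 0.60. The intervals of Cpt2 and Mlycd lie above 0, those of the other 6 genes include 0, and Acaca sits at 0.0031.

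Of the 3 genes that set malonyl-CoA, Mlycd had the largest log2 fold change and Acaca the smallest, and none passed the test. Mlycd (ENSMUSG00000074064, chromosome 8, 119394878 to 119411102, plus strand) stood at 41.4, 48.2 and 43.9 FPKM in the WT control libraries (in replicate order), and at 54.4 and 55.3 FPKM in those labelled skmNrip1-/-. The groups did not overlap, and the log2 fold change of 0.30 (95% interval 0.049 to 0.56) had a p of 0.0263 before and 0.343 after adjustment (limma), so it was not called. Acacb (ENSMUSG00000042010, chromosome 5, 114146535 to 114250761, plus strand) had 49.7, 64.2 and 59.9 FPKM in WT control TA, and 65.6 and 64.3 FPKM in the libraries labelled skmNrip1-/-. The highest WT control library all but reached the lower of these, and the log2 fold change was 0.17 (95% interval -0.14 to 0.49, adjusted p = 0.684 from limma). Acaca (ENSMUSG00000020532, chromosome 11, 84129672 to 84401651, plus strand) had 3.02, 3.84 and 4.41 FPKM in WT control TA, and 3.43 and 4.05 FPKM in the libraries labelled skmNrip1-/-. The latter lay inside the WT control range, at a log2 fold change of 0.0031, with an interval of -0.45 to 0.45 (adjusted p = 0.997 from limma). Acacb made up 93.1% to 94.4% of the summed carboxylase FPKM in WT control TA and 94.1% or more in the libraries labelled skmNrip1-/-. Acaca is also a gene of fat cells. Of the 7 fat cell markers none was listed at 0, and Adipoq, the defining one, was at 0.627 to 1.35 FPKM in WT control TA and at 1.03 and 1.16 FPKM in the libraries labelled skmNrip1-/-. All 7 summed to 1253 to 1855 FPKM in WT control TA and to 713 and 950 FPKM in the libraries labelled skmNrip1-/-, lower with no overlap, and nearly all of this sum was Car3 (log2 fold change -0.98, not called by limma), which muscle fibers also express. Without Car3, the sums were 8.18 to 14.9 FPKM and 12.8 and 12.9 FPKM. The part of these cells in the Acaca values was not tested.

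Of the 8 genes, all tested, 0 were called by limma with the threshold set at an adjusted p of 0.05 and a 1.2-fold change, by which 0.453% of the genes tested were called (0.370% higher and 0.0823% lower). At an unadjusted p of 0.05 or less, 2 of the 8 were higher (Cpt2 and Mlycd) and 0 lower, where 6.57% of the genes tested were higher. All 8 log2 fold changes were above 0, as in 49.9% of the genes tested, and their median was 0.29 against a median of -0.00054 for all genes tested. For 6 of the 8 both libraries labelled skmNrip1-/- were above every WT control library, which 15.8% of the genes tested showed (14.4% were below every WT control library, and 30.2% showed either). The other 2 overlapped. These counts rest on the scaling of the libraries. When the FPKM were rescaled to the same sum in each library (TPM), the median of all genes moved to -0.29, and the log2 fold changes of Cpt1a, Crat, Acaca and Acacb turned negative. After this rescaling, 1 of the 8 genes was above every WT control library, where 2.80% of all genes tested were, and calls over all genes moved from 45 higher and 10 lower to 30 higher and 63 lower. Rescaling shifts all genes of a library alike, so differences from the median of all genes (0.30 for the median of the 8, and 0.66 for Cpt2) are kept by its construction. The FPKM sum, which the rescaling divides by, held a share of mtDNA-encoded genes of 45.4% to 50.7% in WT control TA and 58.6% and 60.9% in the libraries labelled skmNrip1-/-.

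**Figure D3:**
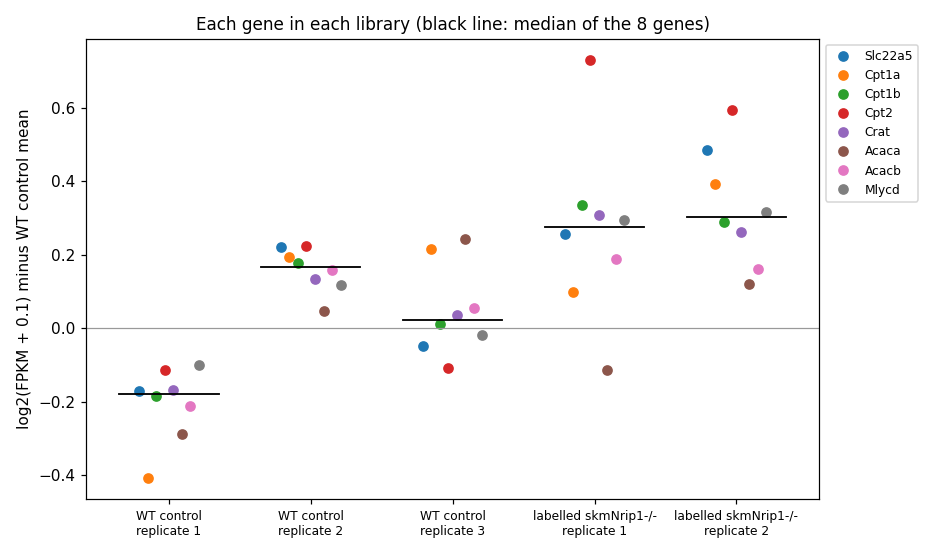
Log2(FPKM + 0.1) of each gene in each library minus its WT control mean (vertical axis), with 1 color per gene and the median of the 8 as a black line. All 8 points of WT control replicate 1 are below 0, and Cpt2 is the highest point in both libraries labelled skmNrip1-/-.

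The WT control libraries also differed among themselves in these genes. WT control replicate 1 was the lowest WT control library for all 8, which 36.5% of the genes tested showed, and it lay 0.10 to 0.41 below the WT control mean on the log2 scale. This is also the library with the largest sum of type 2B fiber markers, and the part of fiber makeup in the values was not tested. WT control replicate 2 was above the WT control mean for all 8. Without WT control replicate 1, the log2 fold change became 0.60 for Cpt2, 0.26 for Mlycd, 0.22 for Cpt1b, 0.20 for Crat, 0.29 for Slc22a5, 0.067 for Acacb, 0.041 for Cpt1a and -0.14 for Acaca.

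**Figure D4:**
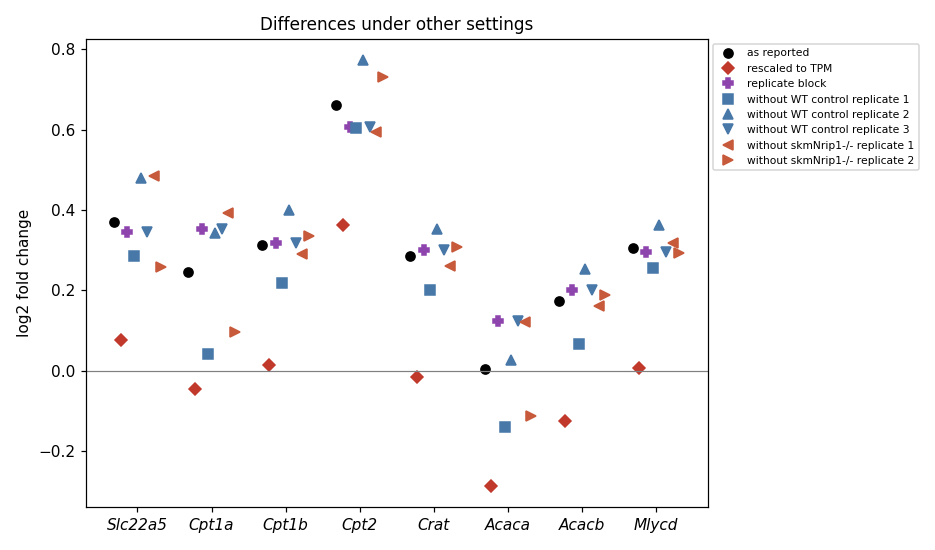
Log2 fold change of each gene (vertical axis) as reported, after rescaling to TPM, with the replicate number as a block, and without each library in turn. Cpt2 stays between 0.36 and 0.77 over these settings, and the red diamonds of the TPM scale sit at or below 0.076 for the other 7 genes.

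Ratios between genes of the same library do not depend on library scaling, and 4 were compared with an exact two-sided permutation test. With 2 libraries against 3 there are 10 splits, and the smallest p this test can give is 0.2. The ratio of Cpt1b to Cpt2, entry into the shuttle over exit from it, came to 4.27, 4.34 and 4.87 in the WT control libraries, and to 3.41 and 3.63 in those labelled skmNrip1-/-. Both of the latter were below every WT control library, a log2 difference of -0.35 (exact permutation p = 0.2, the smallest possible, and 0.8 adjusted over the 4 ratios). The ratio of Acacb to Mlycd, synthesis of malonyl-CoA over its breakdown, was 1.2, 1.33 and 1.36 in WT control TA, and 1.21 and 1.16 in the libraries labelled skmNrip1-/-. The groups overlapped, and the log2 difference was -0.13 (exact permutation p = 0.4). The muscle form exceeded the other form of CPT1 by 39.5 to 53.9 times in WT control TA and by 53.8 and 42.2 times in the libraries labelled skmNrip1-/- (exact permutation p = 1). For the carboxylases, Acacb over Acaca was 13.6 to 16.7 in WT control TA, and 19.1 and 15.9 in the libraries labelled skmNrip1-/- (exact permutation p = 0.6). Neither isoform ratio separated the groups.

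**Figure D5:**
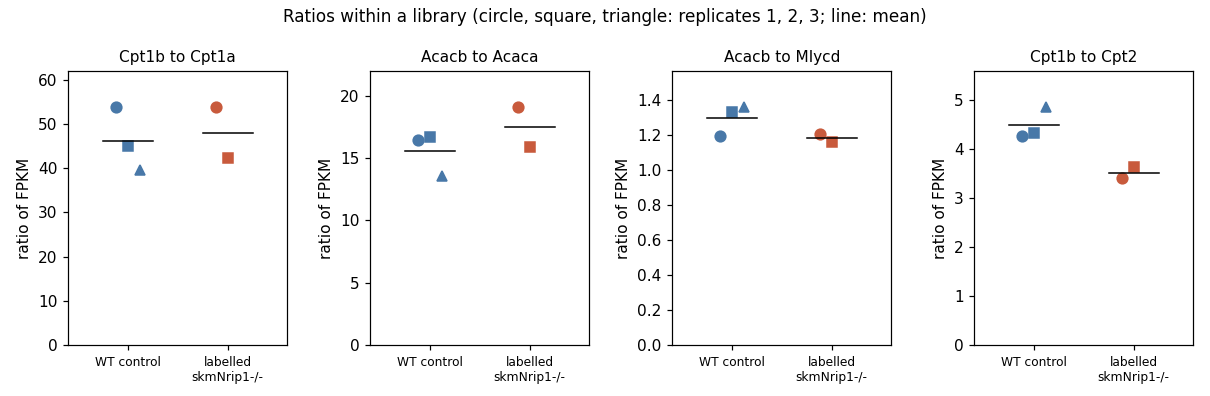
Ratios of FPKM between 2 genes within each library (vertical axes, from 0), with libraries as points and group means as lines. The ratio of Cpt1b to Cpt2 is the only 1 of the 4 in which both orange points (3.41 and 3.63) leave the blue range (4.27 to 4.87).

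The genes around the shuttle gave a mixed picture. Among 11 written genes of carnitine supply and acylcarnitine handling, 9 could be tested and 0 were called by limma. Before adjustment 3 had a p of 0.05 or less, all higher in the libraries labelled skmNrip1-/-: Slc25a20 and the carnitine synthesis enzymes Aldh9a1 and Tmlhe. Among all genes tested, 6.57% were higher at that p. Aldh9a1, the largest of this list, had 2.94 to 4.59 FPKM in WT control TA, and 7.26 and 6.67 FPKM in the libraries labelled skmNrip1-/- (log2 fold change 0.89, limma adjusted p = 0.169). Slc22a4, a related organic cation transporter, was lowest at -0.44, and the median of the list was 0.07. Bbox1, the last enzyme of carnitine synthesis, and Slc22a21 were below the FPKM minimum.

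Of 10 tested genes of malonyl-CoA supply and use, 0 were called by limma and 3 were higher at an unadjusted p of 0.05 or less. Among all genes tested, 6.57% were higher and 5.33% lower at that p. The median log2 fold change of the list was 0.10. Mid1ip1, whose product promotes ACC polymerization, was the largest at 0.73 (47.2 to 60.9 FPKM in WT control TA, and 97.2 and 86.8 FPKM in those labelled skmNrip1-/-, limma adjusted p = 0.124). Slc25a1, the mitochondrial citrate exporter, was the lowest at -0.35. The 12 genes of AMPK and its upstream kinases had a median of -0.14, with 0 called by limma, and 1 higher and 1 lower at an unadjusted p of 0.05 or less. The lower one was Prkag3, the γ3 subunit of fast glycolytic fibers, at 52.4, 30.6 and 35.5 FPKM in WT control TA, against 16.4 and 21.8 FPKM in those labelled skmNrip1-/- (log2 fold change -1.02, adjusted p = 0.197 from limma). The groups did not overlap for Prkag3, and the library highest in type 2B fiber markers was also highest in Prkag3. WT control replicate 2 exceeded replicate 3 in the summed type 2B markers (17322 against 15918 FPKM) but was below it in Prkag3. The part of fiber makeup in the Prkag3 values was not tested. Prkaa1, a catalytic subunit, was the largest of this list at 0.28.

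Downstream of the shuttle, the 17 beta-oxidation genes centered on a log2 fold change of 0.60 (median), with 2 called higher by limma (Hadhb, at 0.95, and Etfa, at 0.77), 16 higher at an unadjusted p of 0.05 or less, and Eci1 lowest at 0.22. In all 17 the groups did not overlap. Among all genes tested, 0.370% were called higher, 6.57% were higher at that unadjusted p, and 15.8% were higher with no overlap. The TPM scale, where the median of all genes was -0.29, would lower the log2 fold changes of this list too. They were not recomputed. Of the 8 genes of the shuttle and malonyl-CoA control, Cpt2 was above the beta-oxidation median of 0.60 and 7 were below it. Acacb and Acaca were below the lowest beta-oxidation gene. Upstream, 11 genes of fatty acid uptake and activation had a median of 0.22, with 1 called higher (Fabp3, at 1.92), and ranged down to -0.91 for Acsl3. These lists were set beside the 8 genes as counts and medians, and the differences between lists were not tested.

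Promoter sequences from RefSeq (GRCm38.p6), 250 bases before to 50 after the annotated start, were found for 6 of the 8 genes, and not for Cpt1b and Crat. They were searched on both strands for AGGTCA, the half-site bound by many nuclear receptors, for its direct repeat with any 1 base between (as PPAR with RXR binds), and for TCAAGGTCA, the extended half-site of ERR, both of which contain the half-site. The half-site was in 2 of the 6 (Cpt1a and Acacb), against 16.3% of all 32851 promoters. The direct repeat and the extended half-site were in 0 of the 6, against 0.0396% and 0.423% of all promoters. The Cpt2 and Cpt1a sequences are given as that of the gene with the largest log2 fold change of the 8 and as an example of a sequence with a match. Capitals mark the half-site, here in its reverse complement at -94 from the Cpt1a start, and the Cpt2 sequence, chr4:107923540-107923839 on the minus strand, has none.
Cpt2: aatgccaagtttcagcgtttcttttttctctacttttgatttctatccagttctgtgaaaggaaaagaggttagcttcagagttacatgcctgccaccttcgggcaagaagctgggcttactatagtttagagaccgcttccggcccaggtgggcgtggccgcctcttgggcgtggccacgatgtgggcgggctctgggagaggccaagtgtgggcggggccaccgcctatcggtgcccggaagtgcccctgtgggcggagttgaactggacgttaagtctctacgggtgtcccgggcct
Cpt1a: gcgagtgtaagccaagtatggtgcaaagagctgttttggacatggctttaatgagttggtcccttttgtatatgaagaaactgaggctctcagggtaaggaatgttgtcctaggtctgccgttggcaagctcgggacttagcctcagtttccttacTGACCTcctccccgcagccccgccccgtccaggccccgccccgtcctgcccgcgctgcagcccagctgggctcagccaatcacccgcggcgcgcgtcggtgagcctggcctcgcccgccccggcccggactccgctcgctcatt
The Cpt1a sequence is chr19:3323051-3323350 on the plus strand, and its RefSeq start lies inside the longer GENCODE gene. The same holds for Acacb (chr5:114165268-114165567, gene from 114146535) and Acaca (chr11:84195188-84195487, gene from 84129672), both farther inside. The Acacb match begins at 43 after the annotated start, in the transcribed part. A match is a string of letters and no measured site, and no binding was measured in these samples.

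The profiles of the 8 genes over the 5 libraries were compared with those of all genes tested, by the Euclidean distance between log2(FPKM + 0.1) values after subtracting each gene's mean. Nearest to Cpt2 were Nampt (distance 0.065) and the beta-oxidation gene Acadl (0.078). Within the 8, Cpt1b and Crat were the closest pair (0.059), and Cpt2 and Acaca the farthest (0.88). The genes nearest to Cpt1b were Guf1 (0.055) and Pacsin2 (0.057), to Crat Tlk2 (0.034) and Prkcq (0.042), to Mlycd Rad21 (0.040) and Erbin (0.050), and to Slc22a5 Scn4b (0.031) and Dnajc27 (0.040). For Acacb they were Ska2 (0.046) and Josd1 (0.048), for Acaca Csnk1g3 (0.072) and Hps6 (0.075), and for Cpt1a Gm14435 (0.052) and AC132444.6 (0.072). Such likeness over 5 libraries is common: 147 genes lay within 0.3 of Cpt2, and 1941 within 0.3 of Acacb.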

How the data were processed

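RNA-seq of TA was taken from the deposited table, with 5 libraries grouped by their public labels. The authors quantified 150-bp paired-end reads with Salmon 1.10.2 on mm10 and summarized them to genes with tximport, per the study's methods, and deposited FPKM. How the FPKM were computed, apart from the scale read from the values, and the annotation release are not given in the sources used here. The authors' deposited table also holds their log2 fold changes and adjusted p-values (DESeq2 1.44.0), which were not used.

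Groups were compared with limma 3.58.1 (R 4.3.3) on log2(FPKM + 0.1), the variance prior following expression, all 5 libraries in 1 fit without covariates, and p-values were adjusted by Benjamini-Hochberg across 12148 genes whose mean reached 0.5 FPKM. Fold changes on this scale understate those of low genes. The step was tested on simulated data. Ratios were tested with scipy 1.17.1. Sequencing depth is unknown, and the relative scaling factors came from FPKM times transcript length less 200 bases. Positions and transcripts are from GENCODE M21. The genes named are the 8, Slc25a20, Nrip1, Chkb, each list's extremes and called members, and the nearest profiles. Tmlhe, Gm44502, Dolpp1, Myh2 and the marker genes were named after their values were seen. The 8 genes and all lists were chosen with earlier results of these data known. Alternatives were other pseudocounts, minimums, scalings, variance models and thresholds, a replicate block, and leaving out each library. Median-of-ratios scaling was among these and could change little, because the values were already on that scale.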

Additional observations from a re-analysis of the deposited data

How the results depend on the processing

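No setting led to a call of any of the 8 genes, except that 2 had an unadjusted p of 0.05 or less. Adjusted p-values over the settings ranged from 0.0607 to 0.609 for Cpt2 and from 0.196 to 0.979 for Mlycd. Rescaling to TPM reversed Cpt1a (-0.046), Crat (-0.015), Acaca (-0.29) and Acacb (-0.13), left 1 of the 8 genes with no overlap, a count added after seeing the data, and gave 63 genes called lower. Without single libraries, Acaca ranged from -0.14 to 0.12 (below 0 without WT control replicate 1 or skmNrip1-/- replicate 2) and the difference between groups in the Cpt1b to Cpt1a log2 ratio from -0.12 to 0.23 (below 0 without WT control replicate 3 or skmNrip1-/- replicate 1), and genes called numbered 6 (without skmNrip1-/- replicate 2) to 55 (without WT control replicate 2) higher and 3 to 16 lower. Calls fell to 22 higher and 3 lower without the intensity trend, and to 14 and 3 at an adjusted p of 0.01 or less. An unadjusted p of 0.05 or less gave 798 higher and 647 lower. With the replicate block, 18 genes were called higher and 4 lower. The groups share 2 replicate numbers, whose deviations correlated at 0.065 and 0.095. With 2 libraries labelled skmNrip1-/-, their deviations from the group mean mirror each other. These correlations therefore cannot decide whether the numbers pair the libraries. When a library labelled skmNrip1-/- was left out, the lone one was assumed to vary like the WT controls. The cause of these changes was not tested. With 2 and 3 libraries, the median 95% interval of the 8 genes reached 0.32 to either side on the log2 scale, and a difference of 0.66 (Cpt2) was not called.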
